A study of Rattus norvegicus with 8 samples.

Results

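Endothelial cells line the blood vessels of every tissue, and in the nodose ganglion, the sensory ganglion of the vagus nerve, they separate neurons and glia from the blood. Here nuclei were assigned to this cell type by a marker rule: at least 2 of Pecam1, Cdh5, Emcn and Ptprb detected with 1 or more UMIs each (unique molecular identifiers, counted transcripts), and the neuronal transcripts Scn10a and Slc17a6 summing to 2 or fewer. Flt1, the remaining marker of the rule, was not used here. The rule found 866 of 36741 nuclei, or 2.36% (95% Clopper-Pearson interval 2.20 to 2.52%, counting error only). Members were thus chosen by their own counts of these transcripts, with a rule written when expression in these nuclei was known, so the levels of the 4 markers describe the selection and were not tested.

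The study measured nuclear RNA in nodose ganglia of untreated Long Evans rats aged 8 weeks, 18 of each sex, and asked how left and right ganglia and the sexes differ. Each of 12 pools combined the ganglia of 1 side from 6 rats, giving 3 pools for male left (ML1 to ML3), male right (MR1 to MR3), female left (FL1 to FL3) and female right (FR1 to FR3). All groups are naive and of a single strain, and left and right pools of a sex draw on the same rats, so that the sides are not independent animals. The pools were spread over 8 sublibraries, which each held nuclei of every pool and gave member shares from 2.13% to 2.66%.

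Pools held 30 to 156 members with 77848 to 361591 UMIs in all, and the median member had 2054 UMIs against 2680 over all nuclei. Y-linked transcripts went against the labelled sex of 2 pools. Among members, the summed Y-linked genes were at 0 CPM (the usual counts-per-million scale, UMIs over the set's total) in ML1 and at 118 CPM in FL1. In the other male-labelled pools they were at 55.9 to 123 CPM, and in the other female-labelled pools at 0 to 6.92 CPM. Sex is therefore written as labelled, and results by sex are given with and without these pools. Of 34798 barcode combinations, 1865 occurred in more than 1 sublibrary, between which the first rounds of barcodes are shared by construction.

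As background, endothelial cells take their identity from ETS and SOX transcription factors and respond to VEGF through Kdr and to angiopoietins through Tek. In barrier-forming vessels, Wnt signalling maintains tight junctions and a set of carriers and efflux pumps, while vessels outside barriers carry fenestrae or vesicles marked by Plvap. Sensory ganglia are known for a blood supply that is more permeable than that of the brain.

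Sequences before the transcription start are shown for 3 endothelial genes, since genes of this type rose together below and ETS factors were among them. The motif AGGAAG, an ETS-type core read on both strands (CTTCCT on the reverse), is in capitals. Windows cover the 250 bases before the start from RefSeq (GRCr8). Emcn (chr2:228564289-228564538, plus strand) is a marker of the rule and held the motif once on each strand. Tie1 (chr5:137304982-137305231, minus strand), an orphan receptor of the angiopoietin system, held 1 match, and Adgrl4 (chr2:243014689-243014938, plus strand), an adhesion receptor of angiogenic endothelium, held 0.
Emcn: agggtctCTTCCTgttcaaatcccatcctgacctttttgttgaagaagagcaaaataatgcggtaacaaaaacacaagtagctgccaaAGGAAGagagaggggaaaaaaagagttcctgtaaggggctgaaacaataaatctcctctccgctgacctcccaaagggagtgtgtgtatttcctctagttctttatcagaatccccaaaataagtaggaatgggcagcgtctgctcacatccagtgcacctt
Tie1: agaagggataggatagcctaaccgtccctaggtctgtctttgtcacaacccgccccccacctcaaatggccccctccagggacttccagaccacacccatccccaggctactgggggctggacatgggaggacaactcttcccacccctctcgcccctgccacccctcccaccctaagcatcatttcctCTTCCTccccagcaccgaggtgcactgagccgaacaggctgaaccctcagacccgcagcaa
Adgrl4: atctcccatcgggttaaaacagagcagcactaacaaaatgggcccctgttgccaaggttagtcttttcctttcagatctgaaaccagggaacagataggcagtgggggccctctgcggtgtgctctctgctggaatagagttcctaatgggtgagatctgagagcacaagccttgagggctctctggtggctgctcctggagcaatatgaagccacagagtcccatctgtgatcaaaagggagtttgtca
Of 33 genes in the endothelial lists 22 matched the RefSeq table by symbol, and 12 of their 23 windows (52.2%) held the motif, against 29.5% of the 33469 windows of all genes. A match is a description of these letters and not a bound site.

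The label was first checked with 27 endothelial genes outside the rule (the held-out genes), such as Tie1, Tek, Erg and Mecom. Members were a mixture. The median held-out level was 4.72 UMIs per 1000 in the 458 members with exactly 2 markers, 10.9 in the 279 with 3 and 13.2 in the 129 with all 4. Just outside the rule, the 2338 nuclei with 1 marker under the same neuronal limit were at 0.393 UMIs per 1000. The 36 nuclei with 2 markers and a neuronal sum of 3 were at 0.766.

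Clustering the members gave 11 subclusters, written e1 to e11, and their levels are descriptions because the same genes formed them. In 6 of them (e1, e4, e5, e6, e7 and e9) the median held-out level was 9.64 to 16.7 UMIs per 1000. These endothelial-rich subclusters held 505 members, or 58.3%, and were set apart after the data were seen at a limit of 8 UMIs per 1000. The other 361 members lay in subclusters below this limit. Of these, 3 were led by genes of other cell types. They were e2 by Apoe, Shank2 and Ncam2 (satellite-glia-like, 146 nuclei), e8 by Mbp and Prx (myelinating-Schwann-like, 47 nuclei) and e11 by Ttn, Myh4 and Neb (skeletal-muscle-like, 26 nuclei, 21 of them in FR2). Subclusters e3 (114 nuclei, led by Zfp804b, Brinp3 and Kirrel3) and e10 (28 nuclei, led by Hs3st4, Dgki and Chrna3) met no marker list and stayed unnamed. They had the lowest held-out medians, 1.91 and 0.942. Brinp3 and Kirrel3 are also among the greatest falls in members given below, so these nuclei were not endothelial-like by their leading genes. Whether they are neurons was not tested. The members are therefore called endothelial-rule nuclei and not endothelial cells.

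**Figure D1:**
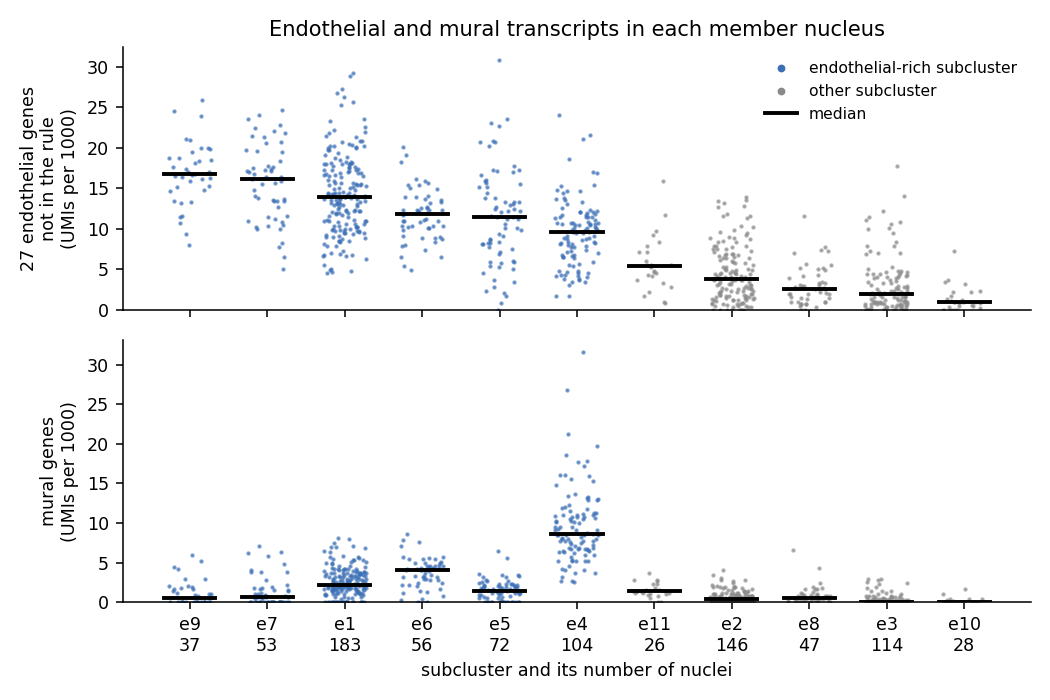
Each point is a member nucleus, placed by subcluster, with UMIs per 1000 of the 27 endothelial genes outside the rule (top) and of the mural genes (bottom); bars are medians. In all, 6 subclusters lie at medians of 9.64 or more in the upper panel, and e4 has the highest median for mural genes, 8.67.

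Mural genes, those of the pericytes and smooth muscle that wrap vessels, were common among members. At least 2 of Pdgfrb, Notch3, Rgs5, Abcc9 and Myh11 were detected in 444 of 866 members (51.3%), and by pool in 39.5% to 65.6%. Members with none of the 5 had a median of 1621 UMIs and those with all 5 a median of 3842. The held-out endothelial level was higher in members with 2 or more mural genes than in those with none: it was 3.98 UMIs per 1000 with 0 mural genes, 10.2 with 2 and 10.6 with 5. Nuclei of 2 cells captured together, free RNA and transcription of both programmes cannot be told apart from these files.

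Against the 18238 remaining nuclei under the same neuronal limit, the endothelial programme stood out in every pool. Of 9827 genes tested, 4733 (48.2%) were called at an edgeR adjusted p under 0.05, 2227 higher in members (22.7%) and 2506 lower (25.5%). All 22 tested held-out genes, of 27 found, were higher, with a median log2 fold change of 4.36, where the median over all genes was -0.03. The rule did not use these genes, yet it chose nuclei for a programme they belong to, so the direction is a check of the label and the pool spread is its error. A gene near 0 in remaining nuclei passed the filter on low counts only where members were high. Counts of higher genes among those tested, here and in the lists below, therefore lean towards rises.

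Cd93, a surface receptor of endothelial cells, had the greatest fold change among genes outside the rule with a mean of at least 100 CPM in members. It was at 136, 237 and 321 CPM in members (lowest, median and highest pool) and at 1.93, 6.01 and 8.10 CPM in remaining nuclei. Its log2 fold change was 5.30 ± 0.13 (SE, 12 pools, edgeR adjusted p = 5.84e-35), and no pool overlapped between the sets. Adgrl4 followed with 422, 574 and 825 CPM against 9.46, 14.9 and 28.7 CPM (5.20 ± 0.12). Adgrf5, an adhesion receptor of vessel endothelium, was at 587, 843 and 1008 CPM against 9.65, 21.7 and 40.2 CPM (5.15 ± 0.11). In all 12 pools each of these genes was higher in members than in the pool's remaining nuclei.

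Among the other genes of greatest change, Galnt15 (5.19), Egfl7 (4.83), a matrix protein secreted by endothelium, Dipk2b (4.79), Zfp366 (4.74), the chemokine Cxcl12 (4.66), RGD1310587 (4.66), Anxa3 (4.61) and Enpp3 (4.60) rose on the log2 scale, as did Entpd1 (4.46), the ectonucleotidase that clears ATP in vessels, the laminin chain Lamc3 (4.44) and AABR07005844.1 (4.94). Acta2, the smooth-muscle actin, was among them at 4.95. The 5 greatest falls were those of Rasgrf1 (-1.93), Kirrel3 (-1.90), Zfp385b (-1.87), Brinp3 (-1.85) and Thsd7b (-1.84), and all 11 tested neuronal marker genes were lower in members. Snap25, a synaptic vesicle fusion protein, was still at 321 to 783 CPM in members against 1252 to 1797 CPM in remaining nuclei.

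**Figure D2:**
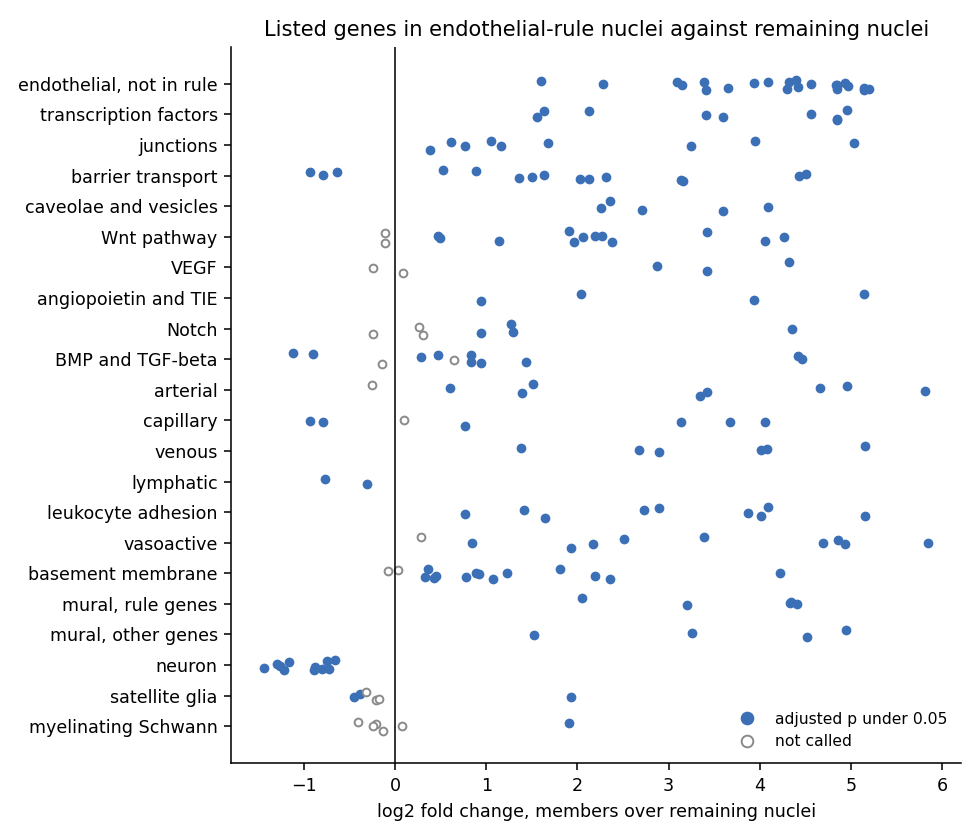
Each point is a gene of a list, placed by its log2 fold change in members over remaining nuclei (edgeR, pool as block); filled points have an adjusted p under 0.05. Held-out endothelial genes, with a median of 4.36, lie with the mural genes at the right and all 11 neuronal genes lie left of 0.

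Transcription factors of endothelial identity rose together, 9 of 9 tested out of 18 found, with a median log2 fold change of 3.59. Erg, the ETS factor that maintains endothelial junctions, was at 155, 218 and 252 CPM in members and at 3.38, 6.83 and 12.7 CPM in remaining nuclei (4.84 ± 0.15). Fli1 (4.56), Ets1 (3.41) and Elk3 (3.59), also ETS factors, rose with it, as did Sox17 (4.96), a factor of arterial identity, and Mecom (4.84), a zinc-finger factor. The pools did not overlap for Erg.

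Receptors and ligands of angiogenesis were both among the higher genes. All 4 tested genes of the angiopoietin list were higher, among them Tek (3.94 ± 0.11), the angiopoietin receptor, Tie1 (5.14 ± 0.18) and the ligand Angpt2 (2.04 ± 0.15). Of 5 tested VEGF genes 3 were higher: the receptor Kdr (4.33 ± 0.15), the coreceptor Nrp1 (2.87 ± 0.09) and the ligand Vegfc (3.42 ± 0.19). Kdr was at 36.9, 146 and 229 CPM in members against 4.65, 6.88 and 11.6 CPM in remaining nuclei. In the Notch list 4 of 7 were higher, led by the endothelial receptor Notch4 (4.36 ± 0.22), with Notch1 (0.95) and the ligand Jag1 (1.27) rising less.

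BMP and TGF-beta signalling genes split: 8 of 12 tested were higher and 2 lower. The endothelial coreceptor Eng (4.42 ± 0.17) and the BMP receptor Acvrl1 (4.46 ± 0.22) rose, whereas Smad9 (-0.91 ± 0.21), a transducer, and Bmper (-1.12 ± 0.25), a secreted BMP modulator, fell. Both falls missed the threshold when members with 2 mural genes were left out.

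Junction genes rose in 9 of 9 tests, out of 12 genes found, with a median log2 fold change of 1.17. Esam, an endothelial adhesion molecule of tight junctions, was at 20.5, 67.1 and 107 CPM in members and at 0 to 3.55 CPM in remaining nuclei (5.04 ± 0.26). Jam2 (3.24) and Lsr (3.95), a tricellular junction protein, rose as well, and Tjp1 (0.76), a scaffold that many cell types use, rose less, as did Jam3 (0.38), whose call was lost when members with 2 mural genes were left out. Cldn5 and Ocln were not analysed here.

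Carriers and pumps of the blood-brain barrier were higher in 12 of 15 tests. Abcg2, an efflux pump, was at 344, 500 and 768 CPM in members and at 16.4 to 31.9 CPM in remaining nuclei (4.43 ± 0.10, edgeR adjusted p = 3.12e-36). Slco1a4, an organic anion carrier of brain endothelium, was at 346, 518 and 607 CPM against 12.5, 19.9 and 33.9 CPM (4.51 ± 0.10). No pool overlapped for either gene, and Slc2a1 (3.15 ± 0.11), the glucose carrier, and Mfsd2a (3.14 ± 0.17), a lipid carrier that limits transcytosis, rose in the same direction. The amino acid carrier Slc7a5 (2.12) and the insulin receptor Insr (1.63) rose less.

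Not all barrier genes rose: the monocarboxylate carrier Slc16a1 (-0.94 ± 0.20), the transferrin receptor Tfrc (-0.79 ± 0.17) and the lipoprotein receptor Lrp8 (-0.64 ± 0.15) were lower in members. These 3 calls were lost when members with 2 mural genes were left out.

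Wnt pathway genes were higher in 12 of 14 tests and lower in 0. Lef1, the transcription factor at the end of the canonical pathway, was at 174, 297 and 412 CPM in members and at 7.71, 14.2 and 23.9 CPM in remaining nuclei (4.27 ± 0.12). The target genes Apcdd1 (4.05 ± 0.15) and Axin2 (2.06 ± 0.22), the receptor Fzd4 (3.42 ± 0.26), the coreceptor Lrp5 (2.27 ± 0.17) and the factor Tcf7 (2.38 ± 0.24) rose with it. Tspan12 (1.14), a partner of Fzd4, and Adgra2 (0.47), a coactivator of Wnt7 signalling, rose less, and the call of Adgra2 was lost without members with 2 mural genes.

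Vesicle genes rose in 5 of 5 tests, out of 7 genes found. Cav1, the coat protein of caveolae, was at 123, 205 and 397 CPM in members and at 8.74 to 24.9 CPM in remaining nuclei (4.09 ± 0.14). Plvap, the diaphragm protein of fenestrae and vesicles, had too few UMIs for the test. It had 42 UMIs in all members, was found in each of the 12 pools and lay between 6.33 and 36.3 CPM. A Plvap UMI was seen in 3.93% of members, 0.11% of remaining nuclei and 0.14% of nuclei over the neuronal limit, whose median depth was 4205 UMIs.

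Genes of vessel segments were higher across segments. Of the arterial list 8 of 9 tested genes (14 found) were higher, and of the venous list 6 of 6 (12 found). Of the capillary list 4 of 7 (12 found) were higher, with Slc16a1 and Tfrc, also counted above, lower. Bmx, an arterial kinase, was at 32.8, 88.6 and 271 CPM in members and at 0 to 2.77 CPM in remaining nuclei (5.81 ± 0.26). Vwf, the platelet adhesion protein that venous endothelium stores, was at 190, 314 and 573 CPM against 8.36, 17.0 and 24.6 CPM (4.08 ± 0.14). The leukocyte adhesion receptors Selp (5.16 ± 0.34) and Vcam1 (4.01 ± 0.27), and Il1r1 (2.90 ± 0.14), the interleukin-1 receptor, rose with it.

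Of the lymphatic list only 2 genes could be tested, and both were lower: Pdpn (-0.76 ± 0.22) and Reln (-0.31 ± 0.10). Both calls were lost when members with 2 mural genes were left out, where Reln turned to 0.12, and that of Reln also without ML3 (-0.21) and without ML1 and FL1. Prox1, the defining factor of lymphatic endothelium, had a UMI in 0.69% of members, and Lyve1 in 0.69%, against 0.29% and 0.38% of remaining nuclei. After thinning every nucleus to 700 UMIs these shares were 0.35% and 0.12% in members.

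Vasoactive genes were higher in 9 of 10 tests. Edn1, which encodes the vasoconstrictor endothelin, was at 31.5, 63.3 and 113 CPM in members and at 0 to 3.09 CPM in remaining nuclei (5.84 ± 0.29). Nos3, the endothelial nitric oxide synthase (4.93 ± 0.26), Ace, which forms angiotensin II (4.86 ± 0.26), the flow-responsive factor Klf2 (4.70 ± 0.25) and the mechanosensitive channel Piezo1 (2.17 ± 0.18) rose in the same direction. Calcrl, the receptor for calcitonin gene-related peptide and adrenomedullin (3.39 ± 0.12), and the bradykinin receptor Bdkrb2 (2.51 ± 0.23) also rose. Basement membrane genes were higher in 13 of 15 tests with a lower median, 0.89, led by the fibronectin receptor subunit Itga5 (4.22) and by Lama5 (2.36) and Col18a1 (1.81).

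Other cell types were present beside these results. All 9 tested mural genes were higher in members, with Acta2 at 164, 270 and 446 CPM against 2.41, 8.52 and 17.9 CPM (4.95 ± 0.15) and Cspg4, a pericyte proteoglycan, at 1.52. Of 6 tested satellite glia genes 1 was higher, Glul (1.93), and 2 were lower. Of 6 tested fibroblast genes 4 were higher and 1 was lower, with a median log2 fold change of 0.31. Summed over the list, mural rule genes ranged from 1328 to 3365 CPM by pool, satellite glia genes from 514 to 1185 CPM, myelinating Schwann genes from 1017 to 3498 CPM and skeletal muscle genes from 77.1 to 13864 CPM, the last in FR2. Their part in the results above was not tested.

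Within the members, levels separated by subcluster, summed here over pools without a test. Subcluster e1 (183 nuclei, present in 12 of 12 pools) was led by Slc39a8, a zinc carrier, Lamc3, Abcg2, Lef1 and Cxcl12. Abcg2 was at 1629 CPM in e1 and 1376 CPM in e5, against 101 CPM in e7 and 235 CPM in e9. Lef1 was at 836 CPM in e1 and at 10.1 CPM, from 1 UMI, in e7. Subcluster e5 (72 nuclei) shared these levels but was led by Prom1 and by the neurofilament genes Nefh and Nefm. By its marker genes e5 was neuron-like, with 3 genes of the neuronal list raised, while its held-out median was 11.4 UMIs per 1000. It is thus a mixed part of the endothelial-rich set.

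Subcluster e7 (53 nuclei, at least 2 in each of the 12 pools) was venous-like by its marker genes. It held 26 of the 42 Plvap UMIs (61.9%), 60 of 112 Aqp1 UMIs (53.6%) and 147 of 327 Il1r1 UMIs (45.0%) while making up 6.12% of members. Plvap was at 263 CPM in e7, at 0 CPM in e4, e6 and e9, and at 8.95 CPM in e1. Its leading genes were AABR07005844.1, Pgm5, Slco2a1, a prostaglandin carrier, Il1r1, Aqp1, the water channel, and Tacr1, the substance P receptor. The barrier genes were lower there than in e1. Slco1a4 was at 80.9 CPM in e7 against 1221 CPM in e1, and Slc2a1 at 40.4 against 591 CPM. Mfsd2a was at 10.1 against 248 CPM and Apcdd1 at 20.2 against 352 CPM. Low Abcg2 was not confined to e7. Of the 1284 Abcg2 UMIs of all members, e7 held 10, e4 (104 nuclei) 41 and e9 (37 nuclei) 14, against 546 in e1. Slco1a4 was less low in these, with 104 UMIs in e4 and 52 in e9 against 8 in e7. Median depth was alike, 1572 UMIs in e7 and 1540 in e1.

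Subcluster e9 (37 nuclei in 10 of 12 pools) was arterial-like. Dll4, the arterial Notch ligand, was at 285 CPM there and at 10.1 CPM in e7, and Vegfc at 570 against 40.4 CPM. Its leading genes also included Sulf1, Eln, the elastin gene, and Col8a1. Subcluster e6 (56 nuclei) was also arterial-like by its marker genes. It was led by Gpr176 and Bmx, with Bmx at 310 CPM, and 91.1% of its nuclei had 2 mural genes. Its median depth of 2968 UMIs was the highest of the 11 subclusters.

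Subcluster e4 (104 nuclei in 12 pools) was mural-like while staying above the limit for held-out genes. It held 1928 of the 2467 Myh11 UMIs of all members (78.2%), with Myh11, the smooth-muscle myosin, at 6751 CPM, and Acta2 at 1289 CPM. Its endothelial genes Mecom (2297 CPM), Tek (585 CPM) and Erg (270 CPM) were at levels within the range of the other endothelial-rich subclusters. Kdr was at 56.1 CPM in e4 and at 352 CPM in e1.

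**Figure D3:**
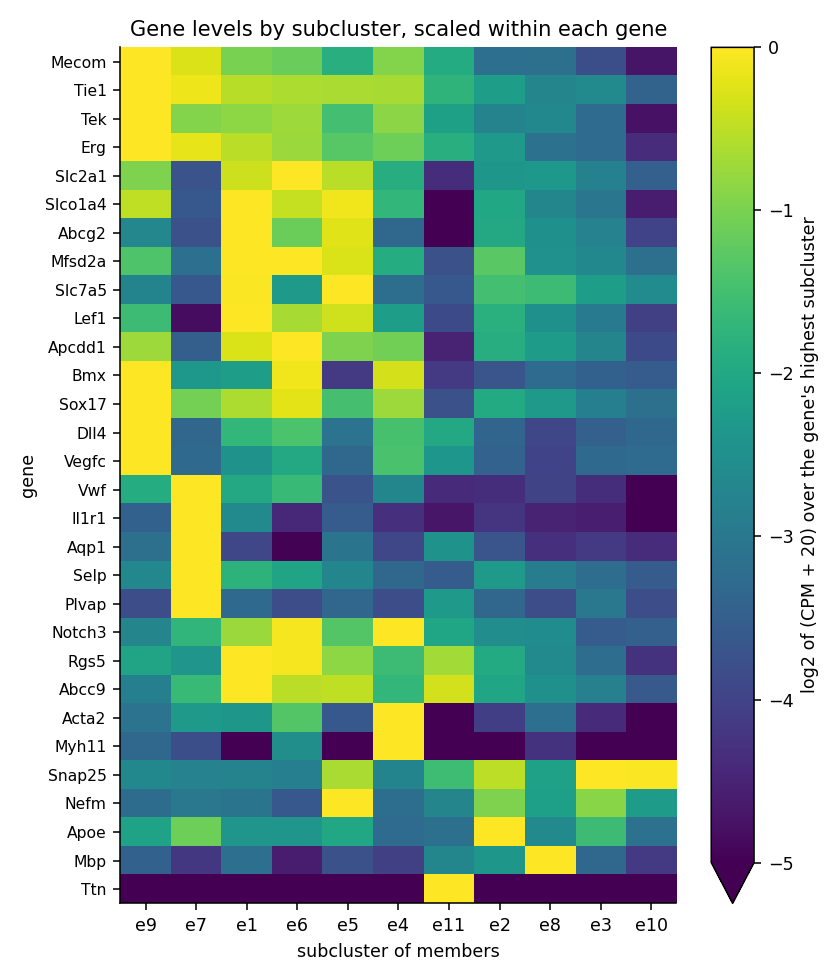
Rows are genes and columns subclusters, ordered by held-out endothelial level; colour is log2 of (CPM + 20) over that gene's highest subcluster, so that rows cannot be compared in height. Plvap, Aqp1 and Il1r1 peak in e7, where Abcg2, Slco1a4 and Lef1 are low; Myh11 and Acta2 peak in e4.

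Pairs of single genes were also counted nucleus by nucleus. These counts were not matched for depth, on which detection of both genes in a nucleus depends. Among the 505 endothelial-rich members, 225 of the 282 nuclei with Abcg2 also had Slco1a4 (79.8%, against 60.4% of all) and 178 had Lef1 (63.1%, against 46.1%). Of the 23 nuclei with Plvap 20 had Vwf (87.0%, against 48.9%) and 4 had Abcg2 (17.4%, against 55.8%). Vwf itself did not part from the barrier genes: of the 247 nuclei with Vwf, 151 had Abcg2 (61.1%, against 55.8%) and 165 had Slco1a4 (66.8%, against 60.4%). The arterial and venous lists, each counted as present with 2 genes, were not exclusive, and 137 nuclei had both. Of the 284 nuclei with the arterial list 48.2% had the venous list, against 45.5% of all. Of the 230 with the venous list 59.6% had the arterial list, against 56.2% of all. The capillary list did not part from these either: it was present in 57.4% of nuclei with the arterial list, against 51.7% of all.

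The barrier genes varied between pools within the endothelial-rich members. Abcg2 ranged from 423 to 1262 CPM (median 756), Slco1a4 from 602 to 1080 CPM (median 793) and Lef1 from 284 to 738 CPM (median 459). Plvap ranged from 10.6 to 51.7 CPM (median 28.4) and Vwf from 328 to 875 CPM (median 531). Each of these genes was detected in all 12 pools.

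Members were also compared with 516 mural-type nuclei, which had at least 2 of the 5 mural genes, failed the endothelial rule and met the same neuronal limit. Against them 1606 of 3524 genes (45.6%) were called by edgeR with pool as a block, 748 higher in members (21.2%) and 858 lower (24.3%). All 17 tested held-out endothelial genes, of 27 found, were higher, with a median log2 fold change of 2.34 against -0.01 over all genes. Mural-type nuclei failed the endothelial rule by definition, so this direction too is a check of the label. The limit of the filter given above holds here as well. The genes of both rules were left out of these counts.

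Vwf was at 240, 397 and 756 CPM in members and at 0, 54.6 and 91.1 CPM in mural-type nuclei (2.82 ± 0.18, edgeR adjusted p = 3.17e-13). Tie1 was at 105.5, 147 and 211 CPM against 0, 16.4 and 50.1 CPM (2.82 ± 0.22), and the pools overlapped for neither gene. The other genes of greatest change were Galnt15 (2.97), Egfl7 (2.94), Sulf1 (2.84), Eng (2.75), Adgrl4 (2.72), Pgm5 (2.66), Mecom (2.56), Eln (2.53), Tek (2.53), the kinase Tec (2.52), Il1r1 (2.51), Fli1 (2.45), RGD1310587 (2.43), AABR07007642.1 (2.41), Adgrf5 (2.40), Meox2 (2.38), Zfp366 (2.38) and the kinase Prkch (2.34).

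Barrier genes separated the sets as well: 8 of 8 tested were higher in members, among them Abcg2 (2.32 ± 0.16) and Slco1a4 (2.20 ± 0.12), while 4 of 7 Wnt genes were higher, with Lef1 at 1.90 ± 0.18. Of 3 tested Notch genes 0 were called. Among the greatest falls were those of Tyrp1 (-1.59), Ephb1 (-1.52), Tnc (-1.46) and Col25a1 (-1.45), and 10 of 10 neuronal genes were lower in members.

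Acta2 did not separate the sets in the direction of the mural label. It was at 207, 344 and 574 CPM in members and at 19.6, 163 and 242 CPM in mural-type nuclei (1.11 ± 0.18, edgeR adjusted p = 1.09e-05), higher in members in 11 of 12 pools. Myh11 and the other rule genes were not tested. Mural-type nuclei are those left after the endothelial rule took every nucleus with both gene sets, and their Nefm level, a neurofilament gene, was 1157 to 4423 CPM against 665 to 2285 CPM in members.

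Members made up similar shares of left and right ganglia. By pool they were 2.00% (ML1), 2.18% (ML2) and 3.01% (ML3) of nuclei in male-labelled left pools and 3.25% (FL1), 1.73% (FL2) and 1.54% (FL3) in female-labelled left pools. On the right they were 2.72% (MR1), 2.19% (MR2), 1.61% (MR3), 2.10% (FR1), 3.42% (FR2) and 1.92% (FR3). The sides overlapped: they averaged 2.28% ± 0.69 for 6 left pools and 2.33% ± 0.65 for 6 right pools (mean ± SD). The difference of 0.0429 percentage points was not detectable beyond the spread of pools (exact permutation test, two-sided, p = 0.925, 400 relabellings, smallest possible p 0.005).

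By labelled sex the share was 2.28% ± 0.505 over 6 male-labelled pools and 2.33% ± 0.806 over 6 female-labelled ones (mean ± SD; exact permutation p = 0.925). Without ML1 and FL1 the difference was -0.198 percentage points (exact permutation p = 0.633). Shares of nuclei depend on every other cell type captured, so that fewer endothelial nuclei and more of another type cannot be told apart.

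**Figure D4:**
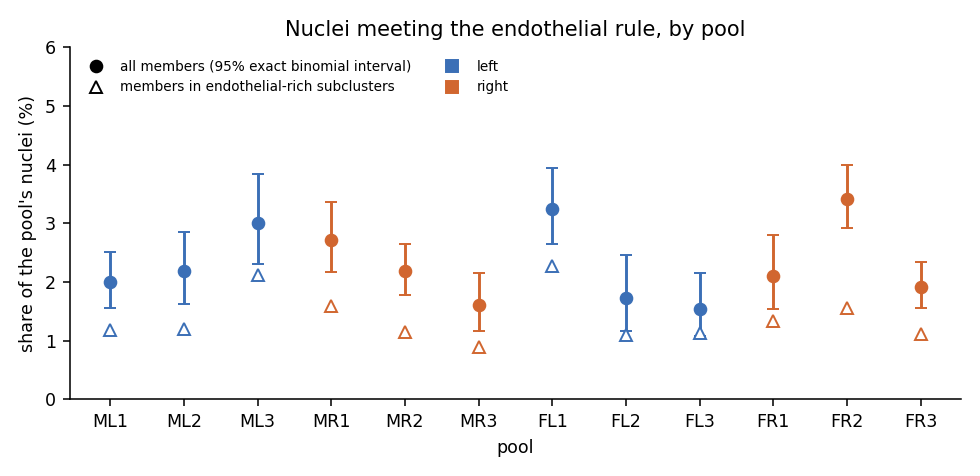
Filled points give the percent of each pool's nuclei that met the rule, with 95% exact binomial intervals, and open triangles the percent in endothelial-rich subclusters; blue is left and orange right. The pools run from 1.54% (FL3) to 3.42% (FR2), and left and right overlap.

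The makeup of the members leaned by side. Endothelial-rich subclusters held 65.3% ± 7.26 of members in left pools (54.9% to 73.5%) and 55.6% ± 6.03 in right ones (45.5% to 63.0%; mean ± SD of 6 pools). The difference of -9.71 percentage points had an exact permutation p of 0.03, and 0.18 after adjustment over the 6 makeup and depth tests, so it did not pass. Median depth did not separate the sides, with 2067 ± 427 UMIs over left pools against 1995 ± 103 UMIs over right ones (mean ± SD of 6; exact permutation p = 0.705).

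Between sides 15 of 5117 tested genes (0.293%) were called in members, 9 with higher and 6 with lower levels in right pools. Unadjusted, 443 genes had p under 0.05. The 6 lower genes were Myh11, Mylk, the myosin light chain kinase, the calcium channel Cacna1c, the sodium-calcium exchanger Slc8a1, the actin crosslinker Actn1, and AABR07070043.1. The 9 higher genes included Scn7a, a sodium channel, Cdh19, a cadherin on the satellite glia list, the kainate receptor Grik2, the integrin Itgb8 and the kinase Prkcq. No gene of the held-out endothelial list was among the 15. Of the 5 tested mural rule genes 1, Myh11, was called lower on the right, and of the 4 other tested mural genes 0 were.

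Myh11 was at 1058, 1963 and 2430 CPM in left pools and at 636, 774 and 1309 CPM in right pools (lowest, median and highest). The sides overlapped, with MR3 above ML1 and ML2, and the log2 fold change was -1.08 ± 0.18 (right over left, edgeR adjusted p = 0.0122). Cacna1c was at 1260, 1596 and 2020 CPM on the left and at 814, 1093 and 1183 CPM on the right (-0.55 ± 0.13, edgeR adjusted p = 0.0480). Its sides did not overlap, and neither did those of Actn1 (-0.79) and AABR07070043.1 (-1.27), whereas those of Slc8a1 (-0.75) and Mylk (-0.71) did.

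Scn7a was at 850, 1212 and 1354 CPM on the left and at 1373, 2042 and 2257 CPM on the right (0.71 ± 0.14, edgeR adjusted p = 0.0265). Prkcq was at 27.4, 43.2 and 124 CPM on the left and at 61.0, 132 and 185 CPM on the right (1.56 ± 0.30, edgeR adjusted p = 0.0265), with the sides overlapping. Cdh19 (0.69), Grik2 (0.57) and Itgb8 (0.75) did not overlap between sides, whereas Plekha4 (0.97), Tns3 (0.82), Fam78b (0.91) and Eda (0.86) did. In all, 7 of the 15 called genes and 28 of 5123 genes had no overlap between sides.

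**Figure D5:**
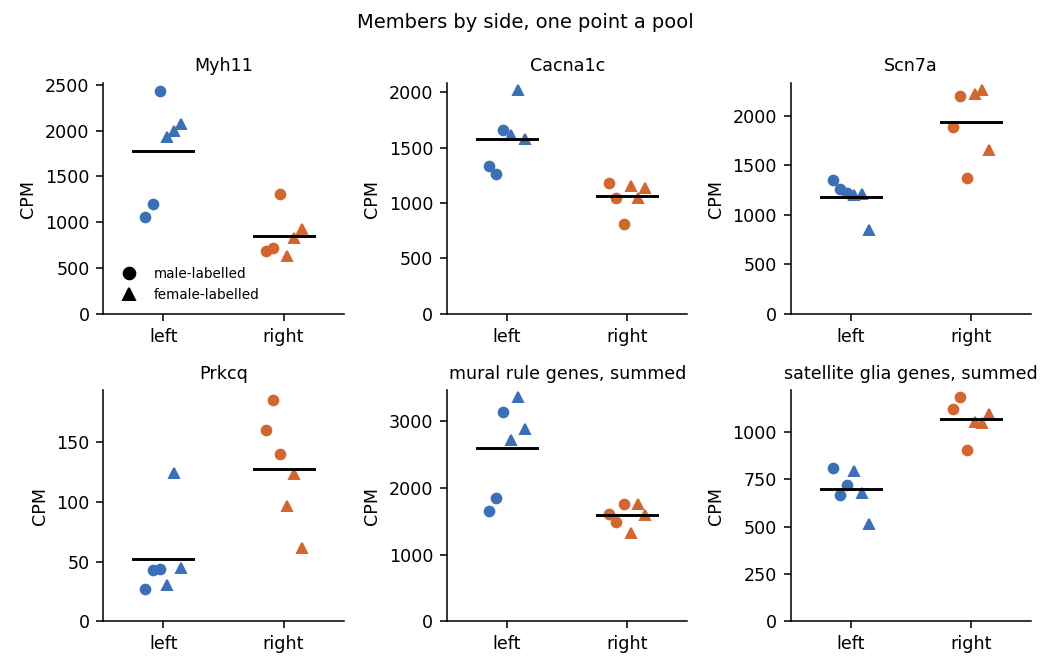
Each point is a pool's level in members in CPM, blue left and orange right, circles male-labelled and triangles female-labelled, with the mean as a bar. Myh11 and Cacna1c are lower on the right, Scn7a and Prkcq higher; the summed mural and satellite glia genes move the same way as the genes above them. The sums include the called genes Myh11 and Cdh19.

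Marker levels of other cell types moved with these calls. Summed mural rule genes, Myh11 among them, averaged 2607 CPM in left pools (1661 to 3365) and 1593 CPM in right pools (1328 to 1764). The mural-like subcluster e4 held 54 of 345 members of left pools (11.6% to 20% by pool) and 50 of 521 members of right pools (3.96% to 18.6%), with overlap. Satellite glia genes, the called gene Cdh19 among them, averaged 697 CPM on the left (514 to 807) and 1067 CPM on the right (906 to 1185), without overlap. Myelinating Schwann genes averaged 1483 CPM (1017 to 2506) and 2172 CPM (1275 to 3498). Fibroblast genes averaged 1286 CPM on the left (1045 to 1743) and 1701 CPM on the right (1163 to 2199), with overlap. The summed held-out endothelial genes averaged 8278 CPM on the left (7508 to 9107) and 7161 CPM on the right (6159 to 8302).

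Their part in the calls was not tested. Within endothelial-rich members 1 gene was called, Myh11 (-0.78, edgeR adjusted p = 0.00729). That set keeps the mural-like e4, which held 78.2% of the Myh11 UMIs of all members, so it does not set mural nuclei aside. The log2 fold changes of other genes there were near those in all members for Grik2 (0.71), Cdh19 (0.58), Tns3 (0.69), Slc8a1 (-0.59) and Actn1 (-0.61), and smaller for Plekha4 (0.26), Fam78b (0.26), Cacna1c (-0.32) and Mylk (-0.42). Scn7a was at 0.51, Eda at 0.52 and AABR07070043.1 at -0.86, and Prkcq and Itgb8 had too few counts for the test. With members of 2 mural genes left out 0 genes were called by edgeR (193 had an unadjusted p under 0.05). Without ML3, MR2 or FR1 the count was 0, and without ML1 it was 37. Each of the 15 calls was lost under at least 1 alternative.

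Between the labelled sexes 0 of 5117 genes (0%) were called by edgeR, with 295 at an unadjusted p under 0.05 and 0 called by DESeq2. The 1 tested gene of the Y-linked list was not called either (-1.32), with ML1 and FL1 kept under their labels. The absence of calls therefore says little about sex. Among genes with a symbol, the smallest p-values were those of Atp2b2, a calcium pump (-0.91 ± 0.22), the calcium channel subunit Cacna2d3 (-0.60 ± 0.14) and the glypican Gpc6 (-0.64 ± 0.15), each lower in female-labelled pools with an edgeR adjusted p of 0.400. Atp2b2 was at 89.0, 134 and 202 CPM in pools labelled male and at 44.7, 59.7 and 111 CPM in those labelled female, which overlapped. Cacna2d3 (lowest male-labelled 607 CPM, highest female-labelled 556 CPM) and Gpc6 (426.6 and 426.1 CPM) did not overlap. Over all genes 15 of 5123 had no overlap between the labelled sexes. Without ML1 and FL1, 7 genes were called.

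In 1 of 5117 genes (0.0195%) the side difference depended on labelled sex. Grik1, a kainate receptor subunit, was at 181, 334 and 159 CPM in ML1 to ML3 and at 113, 101 and 140 CPM in MR1 to MR3, lower on the right. In female-labelled pools it was at 80.4, 110 and 29.8 CPM in FL1 to FL3 and at 362, 182 and 327 CPM in FR1 to FR3, higher on the right. The sides did not overlap within either labelled sex. With FL1 (80.4 CPM) among the male-labelled left pools, where its Y-linked transcripts would place it, the sides overlap. The interaction of side and labelled sex was 2.75 ± 0.46 on the log2 scale (edgeR adjusted p = 0.0106). It was lost without ML2, without MR2, without FL1 and without FR3, with members of 2 mural genes left out (edgeR adjusted p = 0.171), at a neuronal sum of 0, without ML1 and FL1 together (edgeR adjusted p = 0.275) and among members with 3 markers (edgeR adjusted p = 1.000).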

How the data were processed

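Nuclear RNA was measured with a split-pool barcoding kit, and the deposited values are UMI counts per gene and nucleus, made by the authors with no normalisation. The submitters' processing notes name the build mRatBN7.2, R 4.3.2 and Seurat 4.1.3; filters on nuclei and the counting tool were not stated in the sources read here. Nuclei were assigned to the 12 pools by the deposited per-nucleus sample names, and the summed counts of all 36741 nuclei equalled the deposited totals (139965360 UMIs, 779 or more in each nucleus). The rule, the lists and the members were chosen with earlier results of these data known. No separate step for doublets was run.

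Counts were summed per pool and set and tested with edgeR 4.0.16 (TMM, filterByExpr, quasi-likelihood test, Benjamini-Hochberg adjustment over all genes tested, threshold 0.05), with pool as a block against other nuclei and with side and labelled sex as terms within members. Values by pool in comparisons between sets or sides are TMM-normalised CPM. Sums over lists, values of subclusters and of Plvap by pool, and values within endothelial-rich members are plain CPM. Shares were compared by exact permutation over pools, within the other factor. Pools are the replicates, and since left and right pools of a sex share rats, p-values by side measure the spread between pools. Subclusters came from scanpy 1.11.5 (2000 variable genes, 20 components, 15 neighbours, Leiden resolution 0.8). The procedure was tested on simulated counts.

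Genes of the lists could be named. Otherwise the text names, against other nuclei, the 20 genes with the greatest fold change upward at a mean of 100 CPM in members and the 5 downward at 100 CPM in the other set. By side, sex and interaction it names up to 10 called genes a direction, or the 3 of smallest p. A few genes that this rule or the lists would name are not reported here. Alternatives covered the marker number, mural genes, the neuronal limit, depth, scaling by DESeq2 1.42.0, its Wald test, the filter on low counts, a replicate block and each pool left out. Intervals cover counting error only.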

Additional observations from a re-analysis of the deposited data

Results flagged for a closer look

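In 44 groups of 6 pools tested for a pool standing apart, 7 did. The limit is set at about 1 in 20 for a single group of normally spread values. The groups reuse the same pools, once by side and once by labelled sex, so the count of 7 cannot be set against that rate. Summed skeletal muscle genes in members were at 13864 CPM in FR2, where the next right pool was at 1613 CPM and the next female-labelled pool at 1437 CPM. That sum was at 1437 CPM in FL1 (next left pool 525 CPM) and at 1613 CPM in MR1 (next male-labelled pool 627 CPM). Summed myelinating Schwann genes were at 3498 CPM in MR2 (next male-labelled pool 1671 CPM) and at 2506 CPM in FL2 (next left pool 1537 CPM). Summed mural rule genes were at 3138 CPM in ML3, where the next male-labelled pool was at 1856 CPM. The side difference of Grik1 differed between the labelled sexes, with an interaction of 2.75 on the log2 scale (edgeR adjusted p = 0.0106).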

How the results depend on the processing

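Calls against other nuclei were the steadiest. Without single pools they numbered 4460 to 4698 against remaining nuclei and 1428 to 1628 against mural-type nuclei. With members of 2 mural genes left out they were 1867 and 422, and at a neuronal sum of 0 the calls against mural-type nuclei were 635. Against remaining nuclei 90 of 101 named genes, and against mural-type nuclei 53 of 55, kept their call under every alternative in which they were tested. Not all genes could be tested in each. Against mural-type nuclei Il1r1 was tested in 11 alternatives and Pgm5 in 12, where Vwf was tested in 21. Reln reversed to 0.12 with members of 2 mural genes left out and to 0.47 against all other nuclei, and Nr2f2 against mural-type nuclei to -0.31 with those members left out. The share difference by side (right minus left, percentage points) turned to -0.0950 with 3 markers, -0.103 at a neuronal sum of 0, -0.0277 after thinning, -0.659 as a share of nuclei under the neuronal limit and -0.228 for endothelial-rich members, and ran from -0.176 to 0.236 without single pools. By labelled sex (female minus male) it turned to -0.0135 with members of 2 mural genes left out and -0.198 without ML1 and FL1, with -0.175 to 0.201 without single pools.

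Calls by side numbered 1 with 3 markers, 0 with members of 2 mural genes left out, 36 at a neuronal sum of 0, 1 in endothelial-rich members, 5 without ML1 and FL1, 92 with no filter on low counts and 29 by the DESeq2 Wald test. They ran from 0 to 37 without single pools. Calls by labelled sex numbered 1 with members of 2 mural genes left out, 7 without ML1 and FL1 and 42 with no filter, and 0 to 5 without single pools. Interaction calls numbered 0 with 3 markers, with members of 2 mural genes left out, at a neuronal sum of 0, in endothelial-rich members and without ML1 and FL1, 12 with no filter, and 0 to 4 without single pools. Cacna2d3 by labelled sex reversed to 0.0032 with 3 markers and 0.13 in endothelial-rich members. The limit for endothelial-rich members was chosen after seeing the data. The causes of these changes were not tested.

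Left and right pools share replicate numbers. Deviations of same-numbered pools from their group means correlated between -0.0526 and 0.0453. With 3 pools in a group and 30 to 156 nuclei in a pool, this check cannot decide whether the numbers mark the same rats. The main tests did not use the numbers as pairs, and a replicate block was run as an alternative. With the replicate block 6 genes were called by side, 5 of them among the 15, and the share difference had an exact permutation p of 0.969 (64 relabellings). At 30 to 156 nuclei a pool, genes of low level such as Plvap and Prox1 could not be tested between sides.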
